A study of Mus musculus with 12 samples.

Results

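Alb, Afp, Ttr, Fga, Fgb, Fgg, Serpina1a, Apoa1, Apoa2 and Ahsg encode proteins that the liver, and before it the yolk sac, secrete into blood plasma. These 10 genes were chosen by symbol, with earlier results of these data known. They came from the 15081 genes named on a mouse oligonucleotide array of 21738 probes, and each had 1 probe. RNA was measured in neurospheres, floating cultures of neural stem and progenitor cells, from the cortex of mouse embryos of gestational day 12.5. The 12 arrays fell into 4 groups of 3, prominin cultures at 108 h, control cultures at 108 h, prominin cultures at 24 h and control cultures at 24 h. An adenovirus that expresses CD133, also written R-prominin1, was given to the prominin cultures, while controls were kept in growth medium alone. The design text, by contrast, names GFP-positive or prominin-positive neurospheres, so virus and prominin cannot be told apart here. For the 24 h prominin samples the titles give 24 h and the treatment text 108 h, and the titles were followed. The medium of all groups was serum-free and held the growth factors bFGF, EGF and LIF, and the labels name no mouse strain for the neurospheres. On each array Cy5-labelled neurosphere RNA was set against Cy3-labelled RNA of whole C57/Bl6 embryos of gestational day 12, without a dye swap.

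Hepatocytes and the visceral endoderm of the yolk sac share a secretory programme. It is driven by transcription factors such as those of the HNF1, HNF4, FOXA and C/EBP families, and it supplies the plasma with carriers, clotting factors and protease inhibitors. Afp is the main plasma protein gene of the fetus, and Alb takes its place towards birth. The brain is not a main source of these proteins, with the exception of transthyretin, which the choroid plexus makes in large amounts. The reference RNA came from whole embryos, which include the fetal liver, and whether yolk sac was left on them is not in the labels.

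The values are log2 ratios as deposited. The labels do not state which RNA is on top. The design text names the neurospheres as channel 1 and the embryo as channel 2, and the median of 21 probes for neural stem genes was 0.79 (11 above 0 and 10 below) against −4.85 for 9 probes of erythroid genes (none above 0). The ratio was therefore read as neurosphere over embryo, a likely but unstated direction, and every sign given here turns round if it ran the other way. The levels of these 2 lists, having served for this choice, are no independent result. Exact zeros and the top value of 16.61 are codes that hold no ratio and were treated as missing. At 108 h an array then had 15944 to 16598 probes with a ratio, and at 24 h it had 10404 to 14465. Ratios of small whole numbers made up 3.62 to 9.84% of them at 108 h and 35.5 to 56.0% at 24 h. For tests the median of 4532 probes, those with a ratio on every array, was subtracted from each array. It lay between −2.59 and −0.84. A centred value of 0 is then the median probe, not equality with the embryo. Whether replicates came from separate cultures is not in the labels. The p-values therefore cover the spread among these arrays, whose number limits the precision.

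Of the 120 array values of the 10 genes, 98 were measured ratios, 21 exact zeros and 1 the top code. The plasma protein genes had very low ratios: 92 of the 98 lay below −3 on the deposited log2 scale. Apoa2 held 5 of the 6 higher values and Serpina1a the other one. No ratio in the whole table lay below −10, and 140 values lay between −10 and −9.5, so the lowest readings of these genes sat near the end of the scale. In bulk RNA fewer cells of a type and less RNA per cell cannot be told apart.

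Alb encodes albumin, the most abundant plasma protein, and was the only one of the 10 genes measured on all 12 arrays. Its deposited log2 ratios were −3.75, −5.05 and −4.36 in prominin cultures at 108 h and −4.55, −5.84 and −5.66 in controls at 108 h. They were −5.66, −8.38 and −7.68 in prominin cultures at 24 h and −5.83, −7.16 and −7.10 in controls at 24 h. At 108 h its groups overlapped, with the prominin arrays on the higher side, and at 24 h the prominin arrays held both the highest and the lowest value. Its mean was −5.92 ± 1.42 as deposited and −4.32 ± 1.78 after centring (SD, n = 12). No fold against the embryo is given for these genes, since their ratios lie near the end of the scale and move with the scaling.

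Afp, which encodes the fetal carrier alpha-fetoprotein and lies next to Alb on chromosome 5, was lower still. Its ratios were −7.06, −7.37 and −6.98 in prominin cultures at 108 h and −6.68, −7.62 and −6.94 in controls at 108 h. At 24 h they were −7.93 and −8.29 in prominin cultures, where the third array had an exact zero, and −7.45, −8.38 and −9.70 in controls. The groups overlapped at both times, and the mean was −7.67 ± 0.87 as deposited and −6.03 ± 1.14 after centring (SD, n = 11). Ahsg, the gene of fetuin-A, a plasma inhibitor of calcification, ran at a similar height. It read −6.76, −7.36 and −6.74 in prominin cultures at 108 h, −6.99, −8.04 and −8.02 in controls at 108 h, −8.00 and −8.93 with 1 zero in prominin cultures at 24 h, and −8.37, −7.64 and −9.78 in controls at 24 h.

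Ttr encodes transthyretin, the carrier of thyroid hormone and of retinol-binding protein, and had the lowest mean of the 10 genes over the arrays that gave a ratio. It read −6.84, −9.30 and −6.95 in prominin cultures at 108 h and −7.14, −8.91 and −7.54 in controls at 108 h, with replicate 2 the lowest in both. At 24 h it read −9.62 and −9.89 with 1 zero in prominin cultures, against −8.29 and −8.38 with 1 zero in controls. The mean was −8.29 ± 1.13 as deposited and −6.61 ± 1.52 after centring (SD, n = 10, zeros left out). Apoa1 encodes the main protein of high-density lipoprotein. It read −7.13, −8.57 and −6.89 in prominin cultures at 108 h, −7.19, −8.84 and −7.28 in controls at 108 h, and −8.70, −9.28 and −8.53 in prominin cultures at 24 h. Controls at 24 h had a single value, −8.31, beside 2 zeros. As for Ttr, replicate 2 was the lowest in both 108 h groups.

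Fga, Fgb and Fgg, neighbours on chromosome 3, encode the 3 chains of fibrinogen, the precursor of the fibrin clot. Fga read −7.95, −7.46 and −9.67 in prominin cultures at 108 h, −5.76, −5.06 and −7.66 in controls at 108 h, −5.62, −6.17 and −6.77 in prominin cultures at 24 h, and −7.20 with 2 zeros in controls at 24 h. Fgb read −7.96, −8.13 and −9.23 in prominin cultures at 108 h, −9.57, −8.70 and −6.35 in controls at 108 h, −7.50 and −6.99 with 1 zero in prominin cultures at 24 h, and −6.05 and −6.80 with 1 zero in controls at 24 h. As deposited, Fga was lower in each prominin array of 108 h than in each control array of 108 h with 1 exception, whereas the Fgb ranges were wide and overlapped. Fgg had 7 values, −6.81 and −9.63 in prominin cultures at 108 h, −8.26 and −7.86 in controls at 108 h, −8.54 in prominin cultures at 24 h, and −5.03 and −9.23 in controls at 24 h. The deposited means of the 3 chains were −6.93 for Fga (n = 10), −7.73 for Fgb (n = 10) and −7.91 for Fgg (n = 7), and the centred ones −5.42, −6.09 and −6.23, with zeros left out.

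Serpina1a encodes an alpha-1 antitrypsin, which inhibits neutrophil elastase. It lies between 2 close relatives, Serpina1d and Serpina1c, and whether its probe tells the copies apart was not tested. It read −7.44, −8.10 and −6.19 in prominin cultures at 108 h, −7.00, −7.15 and −7.96 in controls at 108 h, and −8.61, −9.73 and −8.36 in prominin cultures at 24 h. Controls at 24 h read 2.00 (replicate 1) and −8.97 beside 1 zero. The value of 2.00 is a ratio of small whole numbers, and the next highest reading of the gene is −6.19. Apoa2 encodes another protein of high-density lipoprotein and departed from the other 9 genes. It read 2.68 and −5.81 with 1 zero in prominin cultures at 108 h, 1.22, −2.27 and 1.00 in controls at 108 h, and −0.59 beside 1 zero and the top code in prominin cultures at 24 h. Controls at 24 h had 3 zeros. Both 108 h groups of Apoa2 thus had values on either side of 0. Its readings of 1.22, 1.00 and −0.59 are, however, also ratios of small whole numbers, so its departure rests on few firm values.

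**Figure D1:**
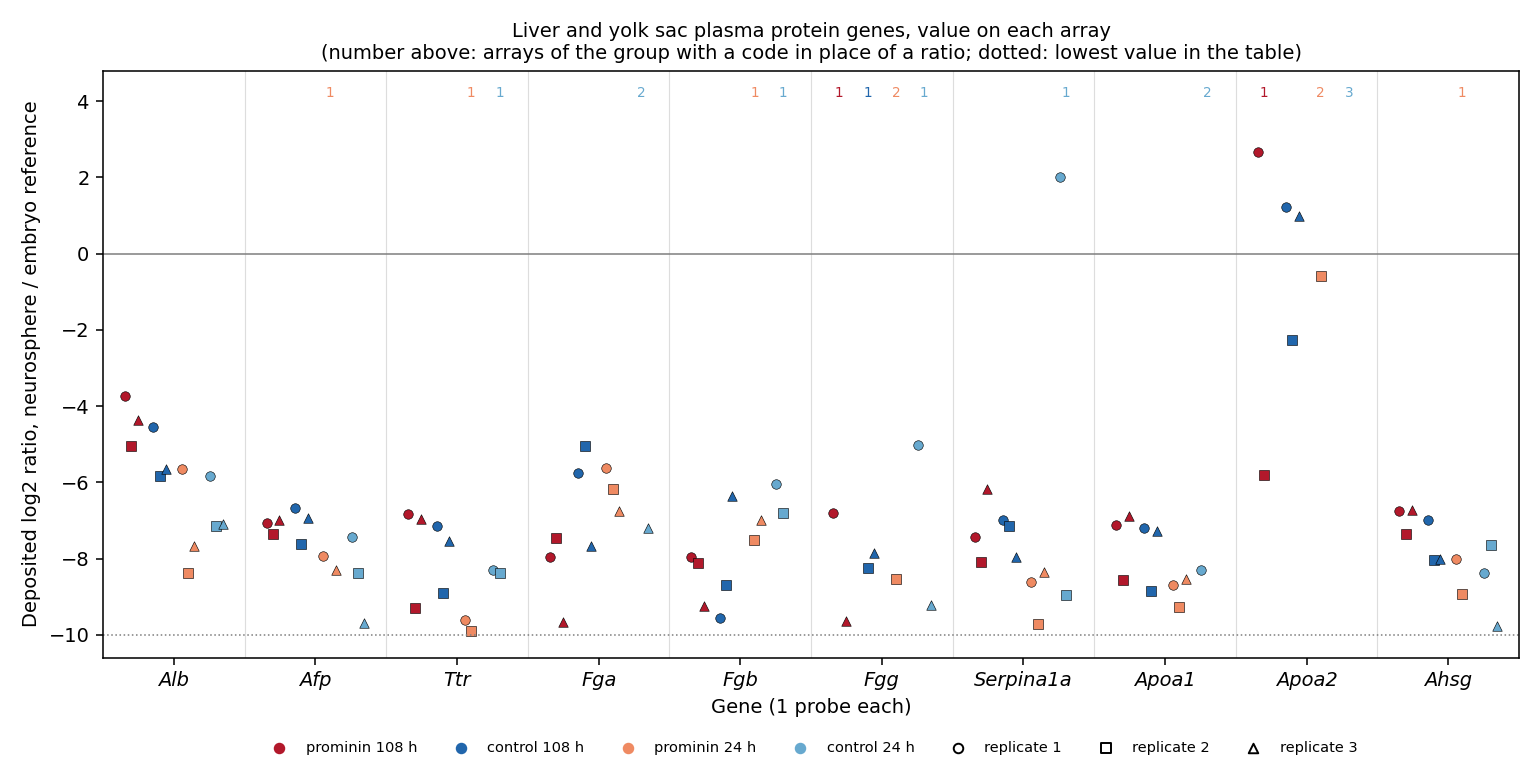
Deposited log2 ratio of neurosphere to embryo RNA (vertical axis) for each of the 10 genes (horizontal axis) on each array, with colour for the group and shape for the replicate. Digits at the top count the arrays of a group with a code in place of a ratio, and the dotted line is the lowest value of the table, −10. Apart from Apoa2 and 1 array of Serpina1a, the points lie below −3.

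Sequences before the start sites of these genes are shown for reference, and a link between them and the ratios was not tested. RefSeq promoters of build GRCm38.p6 were at hand for 9 of the 10 genes. The letters GTTAAT, the core of the element read by HNF1 factors, occurred on either strand within the 250 bases before the start in 5 of these 9 promoters (Alb, Afp, Fga, Fgb and Serpina1a), and in 6.43% of all 32851 promoters of the table. The following lines give the 150 bases before each start, on the gene's own strand, with GTTAAT or its reverse complement ATTAAC in capitals, and in Afp also TATAAA.
Serpina1a, chr12:103863620-103863769, minus strand: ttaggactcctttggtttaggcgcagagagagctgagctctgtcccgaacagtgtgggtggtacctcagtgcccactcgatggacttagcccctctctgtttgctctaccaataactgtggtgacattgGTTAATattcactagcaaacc
Fgb, chr3:83049864-83050013, minus strand: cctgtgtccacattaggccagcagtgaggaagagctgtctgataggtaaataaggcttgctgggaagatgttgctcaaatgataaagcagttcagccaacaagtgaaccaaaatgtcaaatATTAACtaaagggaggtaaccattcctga
Alb, chr5:90460720-90460869, plus strand: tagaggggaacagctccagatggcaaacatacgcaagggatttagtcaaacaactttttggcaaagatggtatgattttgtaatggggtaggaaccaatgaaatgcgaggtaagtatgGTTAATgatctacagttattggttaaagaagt
Fga, chr3:83026003-83026152, plus strand: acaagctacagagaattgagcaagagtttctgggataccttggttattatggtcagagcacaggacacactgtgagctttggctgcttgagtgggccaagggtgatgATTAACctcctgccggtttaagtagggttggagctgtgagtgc
Afp, chr5:90490564-90490713, plus strand: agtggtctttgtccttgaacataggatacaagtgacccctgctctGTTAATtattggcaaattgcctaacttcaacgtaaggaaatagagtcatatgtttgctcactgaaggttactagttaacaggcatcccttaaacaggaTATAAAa

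The base of the GTTAAT match nearest to the start lay 16 bases before it in Serpina1a, 24 in Fgb, 27 in Alb, 38 in Fga and 100 in Afp. The letters TTGCNNAA, a core of C/EBP elements, occurred in 6 of the 9 promoters (Alb, Afp, Fga, Fgb, Ahsg and Apoa2; 9.56% of all promoters). TATAAA occurred in Afp and Apoa2 (12.4%), and CAAAGTCCA, a form of the HNF4 element, in none of the 9 (0.384%). In Afp the TTGCNNAA match (89 to 82 bases before the start) lay downstream of the GTTAAT match, and these 2 did not overlap. A match gives the letters of the window and not a bound site.

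The ratio of neurosphere to embryo RNA was lower for the tested plasma protein genes than for the median probe. Such a level depends on the embryo RNA too and is not the amount of RNA in neurospheres. A test needed at least 2 values in every group, which Alb, Afp, Ttr, Fgb, Serpina1a and Ahsg met and Fga, Fgg, Apoa1 and Apoa2 did not. In a limma fit of the 9155 probes with enough values, all 6 tested genes were called lower at a Benjamini-Hochberg adjusted p threshold of 0.05, where 25.5% of all tested probes were called lower and 30.4% higher. The median over the 6 genes was −6.03, against 0.23 over all tested probes. Ttr lay at −6.74 (SE 0.38, limma adjusted p = 7.22e-07), Ahsg at −6.30 (SE 0.31), Afp at −6.10 (SE 0.30), Fgb at −5.96 (SE 0.35), Serpina1a at −5.10 (SE 0.79, limma adjusted p = 0.000332) and Alb at −4.32 (SE 0.32, limma adjusted p = 9.87e-07). Alb was the highest of these, and 196 of the 9155 probes (2.14%) had a level at or below it. The 95% intervals of Ttr (−7.60 to −5.89), Ahsg, Afp and Fgb overlapped, so these 4 had no settled order, and that of Alb ran from −5.02 to −3.61. The interval of Serpina1a, −6.84 to −3.36, overlapped all 5, so the order of Alb and Serpina1a was not settled either.

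The share of probes called lower moved with the scaling, while these 6 calls did not. Without centring 6.01% of the probes were called higher and 61.9% lower, and with each array centred on all its measured probes 17.8% higher and 36.6% lower. On the 6 arrays of 108 h alone, where zeros were fewer, all 10 genes could be tested and 9 were called lower (12.3% of 14528 probes were). There Apoa1 lay at −5.96 (SE 0.50), Fga at −5.57 (SE 0.48) and Fgg at −6.37 (SE 0.70), with limma adjusted p of 0.000864, 0.000888 and 0.00501. Apoa2 lay at 0.88 (SE 1.42, limma adjusted p = 0.652) and did not pass.

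How the genes ran together was read from differences within an array, which no centring changes. Afp, Ttr, Apoa1 and Ahsg kept close to each other: the 6 differences among them had means between −0.60 and 0.73 on the log2 scale and an SD of 0.41 to 0.77 over 9 to 10 arrays. Alb lay above each of these 4 genes on every array where both were measured, by a mean of 1.98 to 2.66 (SD 0.77 to 0.98, n = 10 to 11). Alb minus Afp, for example, was 3.31, 2.31 and 2.63 in prominin cultures at 108 h, 2.13, 1.78 and 1.28 in controls at 108 h, 2.28 and 0.61 in prominin cultures at 24 h, and 1.62, 1.22 and 2.60 in controls at 24 h. In this difference the groups lay apart at 108 h and overlapped at 24 h, whereas for Alb minus Ttr, Alb minus Apoa1 and Alb minus Ahsg they overlapped at 108 h too. The fibrinogen genes varied more widely: their differences from Alb, Afp, Ttr, Apoa1 and Ahsg had an SD of 1.64 to 2.51, and those among the 3 chains one of 1.10 to 1.85. The genes were grouped in this way after their values were seen, and the arrays share the embryo RNA.

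On control replicate 2 at 24 h the low ratios were deposited in steps. All 1624 values of this array below −4 lay on the log2 of a whole number of thousandths (to 3 decimals), against 1.90 to 6.11% on the other 11 arrays. Afp and Ttr shared the value −8.38, a ratio of 0.003, with a total of 47 probes there. The next step down, 0.002, is −8.97, the reading of Serpina1a, so these 3 genes lie within 1 step of each other on this array.

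Other genes of the same secretory programme were low as well. Of 63 further plasma protein genes of the liver 25 could be tested, 24 of them lay below the median probe, and 24 of their 28 probes were called lower (median of the genes −4.33). By the mean of a gene's probes, the lowest were Apoh (−6.60, SE 0.45), which encodes a phospholipid-binding glycoprotein, and the apolipoprotein gene Apoc1 (−6.25, SE 0.36). A single probe of the transferrin gene Trf lay lower than both, at −6.86, while the gene's other tested probes did not. The highest were the protease inhibitor gene Pzp (0.64, SE 0.62) and the ceruloplasmin gene Cp (−0.25, SE 0.48), whose limma adjusted p of 0.402 and 0.668 did not pass. Of 37 genes for metabolic enzymes and related liver proteins 14 could be tested, with 10 of 15 probes called lower and 1 higher (median −1.71). The fatty acid-binding protein gene Fabp1 (−5.71, SE 0.27) and the alcohol dehydrogenase gene Adh1 (−5.29, SE 0.47) were lowest, Asl, an enzyme of the urea cycle, lay at −0.21 (SE 0.46, not passing), and the cytochrome gene Cyp2e1 was called higher (1.67, SE 0.28).

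The transcription factor genes of the liver lay on both sides of the median probe. Of 31 listed factors 10 could be tested, 5 above and 5 below the median probe, with 3 of 11 probes called higher and 4 lower (median 0.35). These counts are close to the shares over all tested probes, 30.4% higher and 25.5% lower. Cebpa (−2.35, SE 0.44) and Hnf4a (−1.90, SE 0.61, limma adjusted p = 0.0197) were called lower. The circadian factor gene Dbp (2.87, SE 0.30) and Cebpd (2.68, SE 0.29), which belongs to the C/EBP family, were called higher. Most of these factors are also used outside the liver.

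**Figure D2:**
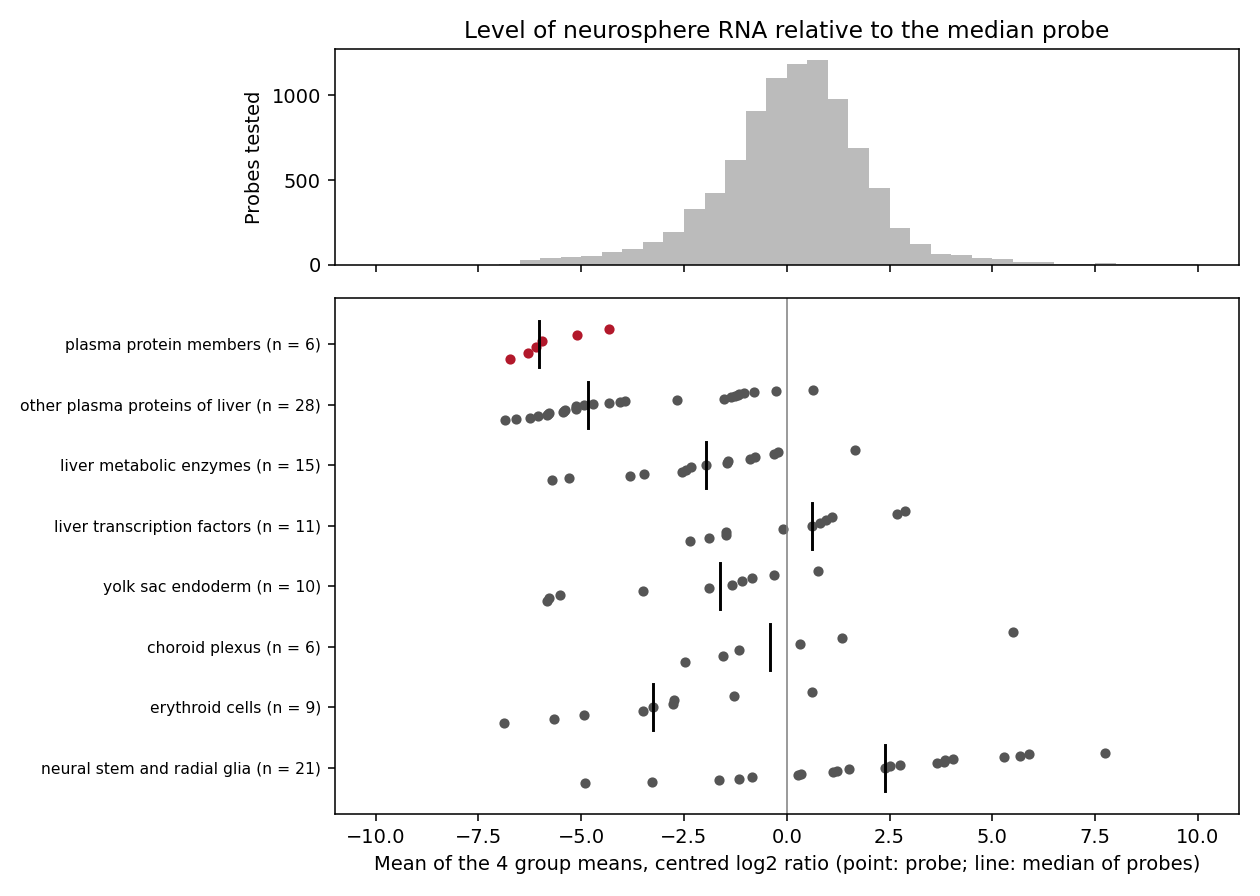
Ratio of neurosphere to embryo RNA relative to the median probe (centred log2 ratio, mean of the 4 group means, horizontal axis). The upper part is a histogram of all 9155 tested probes. The lower part shows the gene lists, 1 point per tested probe with a line at the median of the probes. The 6 plasma protein genes lie between −6.74 and −4.32, and the neural stem probes have a median of 2.39.

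Markers of yolk sac endoderm and erythroid cells were mostly low, those of the choroid plexus went both ways, and those of neural stem cells were mostly high. Whether other cell types added RNA to the cultures was not tested. The lists overlap (7 of the 26 yolk sac genes, 5 of the 31 liver factors and 1 of the 24 choroid plexus genes also stand in another list). For yolk sac endoderm 10 genes could be tested, with 7 of 10 probes called lower and 1 higher. The trypsin inhibitor gene Spink1 (−5.84, SE 0.32) and the retinol-binding protein gene Rbp4 (−5.78, SE 0.41) were lowest, whereas the protease gene Ctsl (0.77, SE 0.17) was called higher and Sox7 lay at −0.31 (SE 0.56, not passing). For the choroid plexus, the site of Ttr expression in brain, 6 genes could be tested and went both ways. Sostdc1 (−2.47, SE 0.42) and Calml4 (−1.56, SE 0.33) were called lower, Igfbp2 (5.49, SE 0.25) and Cab39l (1.33, SE 0.40) higher. Of 9 erythroid probes 7 were called lower, with the embryonic globin genes Hbb-y (−6.88, SE 0.36) and Hba-x (−5.67, SE 0.26) lowest, while Epb42 (0.61, SE 0.46) and Tspo2 (−1.27, SE 0.52) did not pass. Of the neural stem probes 13 of 21 were called higher and 4 lower. By the mean of a gene's probes, the glutamate transporter gene Slc1a3 (5.89, SE 0.35, and 5.68, SE 0.21, by 2 probes) and the glutamine synthetase gene Glul (5.29, SE 0.33) were highest. Sox1 (−4.90, SE 0.41) and Id3 (−3.27, SE 0.25) were lowest. The highest single probe was 1 of Pax6 at 7.75, whose other tested probe lay at 1.13.

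At 108 h prominin and control cultures were compared for a difference in plasma protein genes, and none was called. All 6 tested genes had a higher centred mean in prominin cultures, with a median difference of 1.22 against 0.004 over all probes. For Alb the centred values of prominin cultures were −1.15, −3.27 and −2.03, against −3.24, −5.00 and −4.34 in controls, a difference of 2.04 (SE 0.91, 95% interval 0.04 to 4.04, limma adjusted p = 0.725). Among the probes measured on each array its percentile was 16.9, 6.27 and 16.0 in prominin cultures, against 6.12, 2.54 and 2.92 in controls. The nearest arrays of the groups were close by this measure, and in centred values the groups overlapped. A percentile also moves with the number of other low probes. Per array, 1979 to 3162 deposited values lay below −4 in prominin cultures, against 1189 to 1428 in controls. Centred Ahsg read −4.17, −5.57 and −4.42 in prominin cultures, against −5.68, −7.20 and −6.70 in controls, a difference of 1.81 (SE 0.82, limma adjusted p = 0.725). Ahsg was the 1 gene of the 6 whose groups did not overlap in centred values, as was the case for 7.85% of all tested probes, and for 8% in the direction of lower values. The other differences were 1.24 for Ttr (SE 0.96), 1.20 for Serpina1a (SE 2.10), 1.02 for Afp (SE 0.79) and 0.85 for Fgb (SE 0.90). Leaving out 1 array gave 0.56 to 2.27 for Ttr, 0.63 to 1.85 for Serpina1a, 0.59 to 1.36 for Afp and 0.24 to 1.85 for Fgb.

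The signs depended on the scaling: the array medians of the 108 h groups differed by −1.08 before centring, and without it 4 genes were higher and 2 lower (Alb 0.96, Ahsg 0.73, Afp −0.06 and Fgb −0.23). limma called 0 of 9155 probes at 108 h, with 624 at an unadjusted p under 0.05. The erythroid list moved with the same groups: its median per array was −2.84 to −1.16 in prominin cultures, against −4.99 to −3.35 in controls, with 8 of 9 genes higher in prominin cultures (median 1.54) and none of them called. The part of erythroid RNA in the values of the plasma protein genes was not tested. The further plasma protein genes were higher for 16 of 25 genes (median 0.25), and none was called.

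At 24 h the same comparison pointed the other way and again called none of the 6 genes. All 6 had a lower centred mean in prominin cultures, with a median difference of −1.51 against −0.10 over all probes. Centred Ttr read −8.24 and −8.75 in prominin cultures, against −6.25 and −6.36 in controls (difference −2.20, SE 1.18). Centred Fgb read −6.37 and −6.00 in prominin cultures, against −4.01 and −4.77 in controls (−1.79, SE 1.10). The groups of both did not overlap, nor did those of Serpina1a, which makes 3 of 6 genes where 9.99% of all probes lay apart in that direction and 6.49% in the other, each with only 2 values in at least 1 group. Serpina1a had the widest difference, −6.28 (SE 2.34, limma adjusted p = 0.998), which rests on the reading of 2.00 in control replicate 1. Alb lay at −1.22 (SE 0.91), Ahsg at −0.46 (SE 0.92) and Afp at −0.27 (SE 0.89), with overlapping groups.

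The centring had removed 0.68 here, and without it Afp (0.40) and Ahsg (0.13) were higher in prominin cultures. limma called 0 of 9155 probes, with 419 at an unadjusted p under 0.05. Exact zeros made up 3 of 60 readings of the 10 genes at 108 h and 18 of 60 at 24 h, where they made up 24.2% and 32.3% of the readings of all probes. Whether a zero stands for a ratio below the scale or for a spot without a reading cannot be told apart. Erythroid medians ranged from −4.20 to −2.26 in prominin cultures and from −5.81 to −2.63 in controls at this time, and by the fit 7 of 9 erythroid genes were lower in prominin cultures (median difference −1.25), with none called. Their part in the values of the plasma protein genes was not tested. The further plasma protein genes were lower for 17 of 25 genes (median −0.50), and none was called.

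**Figure D3:**
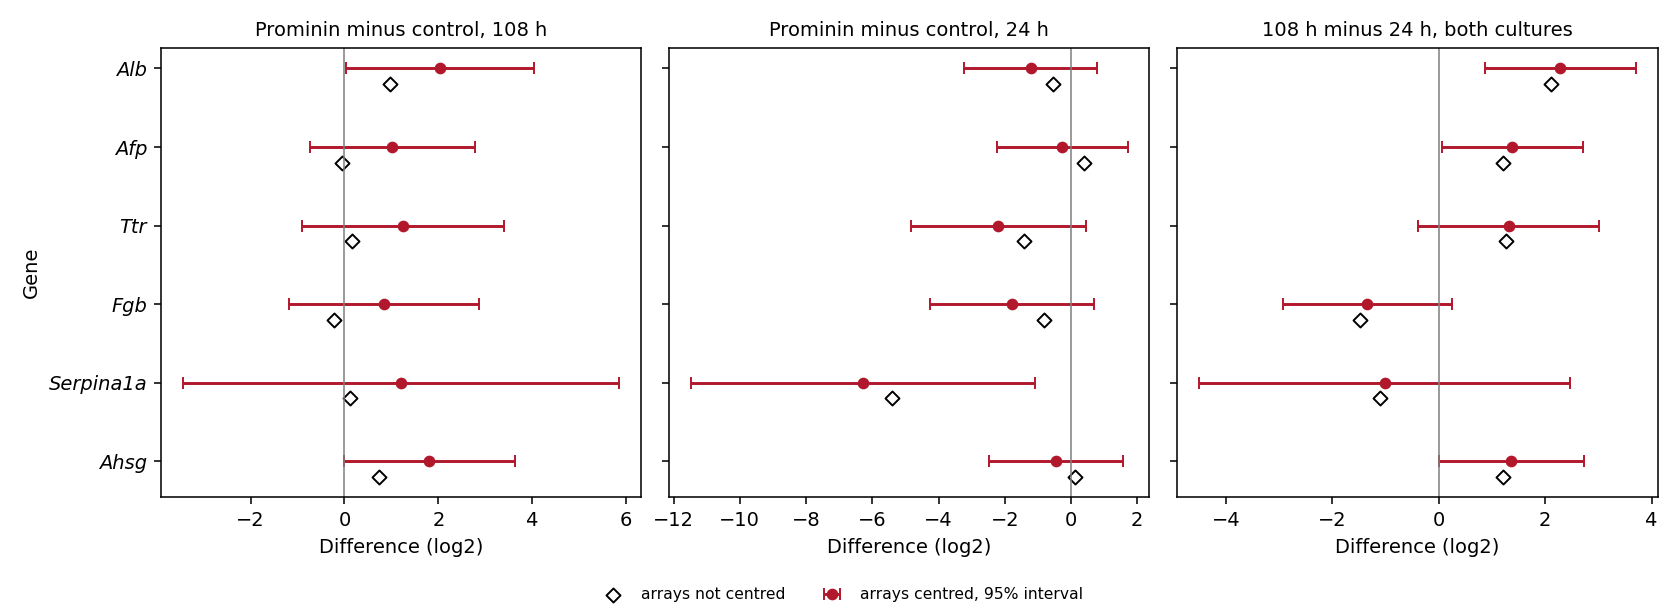
Difference on the log2 scale for the 6 tested genes, with filled points and 95% intervals from the fit of centred arrays and open diamonds from arrays that were not centred. Centred differences between prominin and control cultures were above 0 at 108 h and below 0 at 24 h, and the open diamonds of Afp and Fgb at 108 h and of Afp and Ahsg at 24 h lie on the other side of 0.

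The interaction asked whether the prominin difference changed between the times. It was above 0 for all 6 genes after centring (median 2.95 against 0.06 over all probes), and none was called. The values were 7.48 for Serpina1a (SE 3.15), 3.44 for Ttr (SE 1.52), 3.26 for Alb (SE 1.29), 2.64 for Fgb (SE 1.42), 2.27 for Ahsg (SE 1.23) and 1.29 for Afp (SE 1.19), with limma adjusted p between 0.817 and 0.889. The erythroid list had 7 of 9 genes above 0 in the same contrast (median 2.80), and its part was not tested. Of the 25 further plasma protein genes 13 lay above 0 and 12 below (median 0.19), and none was called. The value of Serpina1a rests on the reading of 2.00 in control replicate 1 at 24 h. limma called 0 of 9155 probes, and 545 had an unadjusted p under 0.05. Without centring, which removed −1.75, Afp turned to −0.45.

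With time in culture none of these genes passed. In prominin cultures and over both cultures Alb had the difference that was largest relative to its error, and in controls Fgb did. In prominin cultures centred Alb read −1.15, −3.27 and −2.03 at 108 h and −4.28, −7.24 and −6.69 at 24 h, a difference of 3.92 (SE 0.91, 95% interval 1.92 to 5.92, limma adjusted p = 0.212). Its percentile among the probes measured on an array was 6.27 to 16.9 at 108 h and 0.353 to 2.07 at 24 h. A percentile also moves with the number of other low probes. Per prominin array, 1979 to 3162 deposited values lay below −4 at 108 h, against 835 to 1096 at 24 h. In controls it read −3.24, −5.00 and −4.34 at 108 h and −3.79, −5.14 and −5.63 at 24 h, which overlapped (0.66, SE 0.91). Over both cultures the difference was 2.29 (SE 0.65, 95% interval 0.87 to 3.70, limma adjusted p = 0.272), and 2.10 without centring.

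In prominin cultures 5 of the 6 tested genes were higher at 108 h with groups that did not overlap (Alb, Afp, Ttr, Serpina1a and Ahsg), where 10.1% of all probes lay apart in that direction and 9.5% in the other. Afp, Ttr and Ahsg had only 2 values in prominin cultures at 24 h, and fewer values lie apart more easily. Alb, Afp, Ttr and Ahsg also ran together over the arrays (Pearson's r of 0.82 to 0.90), so they are not independent. The differences were 3.04 for Ttr (SE 1.07), 2.72 for Serpina1a (SE 2.10), 2.49 for Ahsg (SE 0.92) and 2.03 for Afp (SE 0.89), and Fgb lay at −0.02 (SE 1.00). Apoa1, which was not tested, read −4.54, −6.79 and −4.57 at 108 h and −7.32, −8.14 and −7.55 at 24 h, also apart. None of the 6 was called, and of all probes 0.0218% were called higher (2 of 9155). In controls the 6 genes divided into 3 higher and 3 lower. Fgb, with only 2 values at 24 h, was lower at 108 h with groups apart (−2.66, SE 1.00, limma adjusted p = 0.643), as were 10.2% of all probes (8.4% were higher). Serpina1a lay at −4.76 (SE 2.34), again with the reading of 2.00 in the 24 h controls. Of the erythroid genes 8 of 9 were higher at 108 h in prominin cultures (median 1.67), and their part in the values above was not tested. The further plasma protein genes were higher there for 16 of 25 genes, with none called. Their median was 0.49, against 2.61 for the 6 tested genes. The globin gene Hba-a1 was the 1 gene of the lists called with time, at 6.19 in prominin cultures (SE 0.72, limma adjusted p = 0.0122) and 4.54 over both (SE 0.51, limma adjusted p = 0.00848). Over both cultures 4 plasma protein genes were higher and 2 lower, and none was called (0.0437% of all probes were called higher and 0.0109% lower).

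The probes with a profile most like that of Alb were sought among 4139 probes of other genes measured on all 12 arrays. The nearest by Pearson's r over the 12 arrays were 2 probes of Trf, the gene of transferrin, another plasma protein of the liver (r = 0.946 and 0.902). Serpina1c, an alpha-1 antitrypsin gene (0.913), the globin gene Hba-a1 (0.904) and the imprinted gene H19 (0.902) completed the first 5. These arrays share the embryo RNA and the centring, which enter every profile. The mean centred level was −5.84 and −6.05 for the probes of Trf, −6.21 for Serpina1c, −3.25 for Hba-a1 and −4.09 for H19, so all 5 lay below the median probe, as Alb did.

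**Figure D4:**
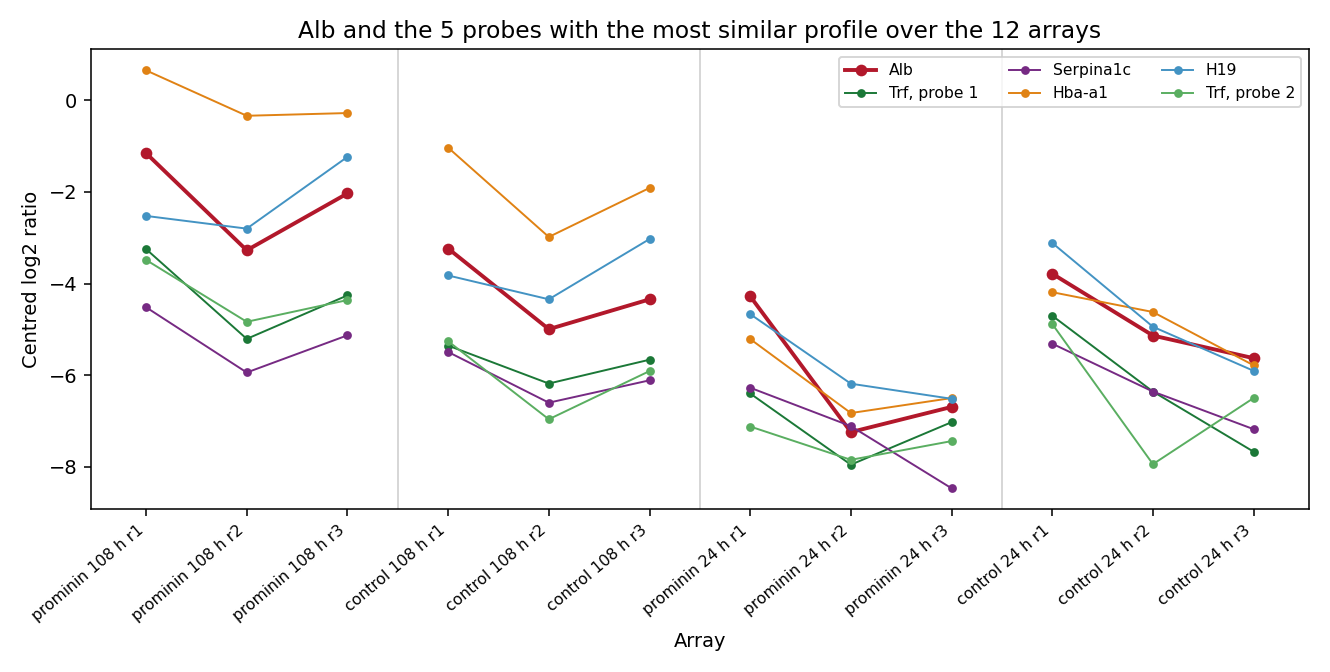
Centred log2 ratio (vertical axis) of Alb and of the 5 probes with the highest Pearson's r to it on each of the 12 arrays (horizontal axis, r1 to r3 for replicates 1 to 3), with lines that join arrays of 1 group. Alb lies highest on prominin replicate 1 at 108 h (−1.15) and lowest on prominin replicate 2 at 24 h (−7.24).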

How the data were processed

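The authors deposited log2 ratios of 2-colour mouse oligonucleotide arrays for 12 samples. Per the labels' protocols, RNA was extracted with Trizol, cleaned on RNeasy columns and labelled with dendrimers, Cy5 for neurospheres and Cy3 for the embryo reference. Which scanner and image software were used, and whether the ratios were normalized, is not given in the sources used here. Gene names came from GEO's annotation of the probes, which can be old: 16620 probes had 1 symbol, 113 several and 5005 none. Sequences came from RefSeq.

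Exact zeros and the top code of 16.61 were set to missing, and the median of the 4532 probes without missing values was subtracted from each array. Probes with at least 2 values in each group (9155) were fitted with limma 3.58.1 in R 4.3.3, with 1 mean per group, 7 contrasts, moderated variance and p-values adjusted by Benjamini-Hochberg over all fitted probes (threshold 0.05). The level is the mean of the 4 group means of the centred ratio to the embryo, against 0. Scripts were tested on simulated data.

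The genes and lists were chosen with earlier results of these data known. The text names the 10 genes and, by the mean of a gene's probes, the 2 highest and 2 lowest tested genes of each other list. It also names up to 3 called genes of a list in a contrast, and the 5 probes most like the genes measured on all arrays, which was Alb alone. Pax6 and Trf were added to the lists' named genes because a single probe of each lay further out. Promoters shown are those with GTTAAT on either strand. Alternatives covered centring, quantile normalization, the codes, the filter, averaging of probes, moderation, array weights, blocks and each array left out.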

Additional observations from a re-analysis of the deposited data

How the results depend on the processing

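In 138 alternatives for the level of the 6 tested genes, each gene stayed lower than the median probe and called, with limma adjusted p of at most 0.00423. The count of genes called changed with how many could be tested. It was 1 with 3 values required in every group, 3 to 6 when 1 array was left out (3 without replicate 1 or replicate 2 of either 24 h group) and 1 without both 24 h replicate 1 arrays, against 6 in the fit as reported. It was 9 of 10 with the zeros or both codes kept and 9 on the 108 h arrays alone or with at least 6 values over the 12 arrays. These last 2 and the omission of both replicate 1 arrays were chosen after seeing the data. No gene was called in the other 6 comparisons under any alternative.

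Direction changed as follows, and the cause was not tested. For prominin against control at 108 h, no centring gave Afp −0.056 and Fgb −0.23. At 24 h Afp was 0.40 without centring, 0.068 with arrays centred on all their probes, 2.75 with zeros kept and 3.10 with both codes kept, and Ahsg was 0.13 without centring, 2.60 with zeros and 2.95 with both codes. In the interaction Afp was −0.45 without centring, −1.82 with zeros and −2.60 with both codes, and Ahsg −0.88 and −1.67 with the codes. For time in prominin cultures Afp was −0.51 with zeros and −1.16 with both codes, Ahsg −0.091 and −0.74, and Ttr −0.63 with both codes. For time in controls Ttr was 0.47 without centring and 0.38 after quantile normalization, and over both cultures −1.20 with zeros and −1.46 with both codes. Leaving out 1 array gave ranges across 0 for prominin against control at 24 h (Afp −1.04 to 0.35, Ahsg −1.23 to 0.12), for time in prominin cultures (Fgb −0.44 to 0.33) and for time in controls (Afp −0.036 to 1.36, Ttr −0.84 to 0.29, Ahsg −0.55 to 0.80).

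Deviations of arrays with the same replicate number had r of −0.07 to 0.12 (median 0.050, 3 of 18 pairs above 0.1), and those of other pairs −0.12 to 0.12 (median −0.02, 1 of 36 above 0.1). The numbers were not taken as a pairing, since not every same-number pair was above 0.1. This limit was a choice, and missing it does not show that the arrays were unpaired. Prominin and control replicates 1, 2 and 3, each set against its own number, gave r of 0.11, 0.050 and 0.12 at 108 h. At 24 h they gave 0.093, 0.055 and 0.024. Different numbers of the 2 cultures gave −0.12 to 0.010 at 108 h and −0.098 to 0.054 at 24 h. A shared origin of arrays with 1 number was not tested. With the number as a replicate block the level calls numbered 6 and the others 0, and Fgb with time in prominin cultures turned to 0.016. As a random block its correlation was −0.003, with the same counts of 6 and 0.

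Limits: 3 arrays a group and a median SE near 1 (0.96 for prominin against control at 108 h) leave small differences undetected, and zeros left 4 genes untested. The lowest ratios lie near the end of the scale. No signal or background intensities were used here, so the part of dim neurosphere or bright embryo signal in them was not tested.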
